A study of Mus musculus with 160 samples.

Results

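The 35 genes described here encode the enzymes that break down glucose and that store and release glycogen. They were chosen as a named list of symbols, and all 35 were found among the 43432 genes of the deposited tables. The list holds hexokinases (Hk1, Hk2), glucose-6-phosphate isomerase (Gpi1), phosphofructokinases (Pfkl, Pfkm, Pfkp), aldolases (Aldoa, Aldoc), the enzymes of the lower pathway (Tpi1, Gapdh, Pgk1, Pgam1, Pgam2, Eno1, Eno2, Eno3, Pkm, Pklr) and lactate dehydrogenase subunits (Ldha, Ldhb). It also holds the PFKFB enzymes that set the level of fructose 2,6-bisphosphate (Pfkfb1 to Pfkfb4), fructose bisphosphatases (Fbp1, Fbp2), glycogen synthases (Gys1, Gys2), the branching enzyme (Gbe1), glycogen phosphorylases (Pygm, Pygl, Pygb), subunits of their kinase (Phka1, Phkg1) and the insulin-responsive glucose transporter GLUT4 (Slc2a4).

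RNA sequencing covered 160 libraries from 32 mice, with 1 library per mouse and tissue (cortex, striatum, heart, liver and the tibialis muscle of the leg). R6/2 mice carry a transgene for exon 1 of human huntingtin with an expanded repeat and are a model of Huntington's disease, which affects muscle and metabolism as well as brain. The genotype is labelled Tg(HDexon1)62Gpb, and all mice had a C57BL/6J background. The arms were R6/2 mice given vehicle, R6/2 mice given 30 mg/kg of CHDI-00390576, R6/2 mice given 100 mg/kg of the same compound, and wild type mice given vehicle. CHDI-00390576 inhibits the class IIa histone deacetylases, per the study's title. Dosing was oral, with 2 doses a day, and each arm had 8 mice, 4 males and 4 females. Wild type mice given the compound are not part of these files, and the ages of the mice are not in the labels. The labels name no tissue-specific promoter for the transgene.

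Glycolysis turns glucose or glycogen into pyruvate, and lactate dehydrogenase turns pyruvate into lactate or back. Fast muscle fibres draw on glycogen and glycolysis for short bursts of work, heart muscle can burn lactate, and liver runs the pathway in reverse to release glucose. Most steps have several isoenzymes, each encoded by its own gene and each typical of certain tissues, so that the mixture of isoenzymes follows the kinds of cell present.

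Library totals ran from 30.15 to 39.04 M counts. Gm12695, a gene at the known insertion site of the R6/2 transgene, was higher in R6/2 vehicle than in wild type mice in all 5 tissues, by 4.74 to 8.69 on the log2 scale. Markers of each tissue were abundant in it, for example 25180 to 39680 library-scaled counts (CPM) summed over 6 skeletal muscle genes in tibialis of R6/2 vehicle mice, against 113300 to 135900 CPM in wild type mice. In 13 of the 160 libraries long transcripts were scarce, and in 2 libraries of 1 wild type mouse (1 from cortex, 1 from striatum) genes of the sex chromosomes contradicted the label. Calls that change without the first set are given with the results. The 2 libraries of the second set were kept as labelled, and no fit without them is given. The genotype and sex results in cortex and striatum, and their comparison within mice, include these 2 libraries. CPM are TMM-scaled, which sets the bulk of genes equal between libraries. Each change is given on the log2 scale with its SE, from 8 mice per arm. The words rose and fell are kept for an adjusted p under 0.05 in edgeR's quasi-likelihood test, or in limma's test where FPKM is named.

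Stretches of 300 bases around the annotated start sites of 33 of the 35 genes (250 bases before and 50 after, RefSeq, GRCm38.p6) were searched on both strands for 4 short motifs. Of the 20 genes that fell in tibialis (below) and have such a stretch, 10 held CAGCTG, an E-box of the kind that myogenic factors bind, and so did 1 of the 13 other genes. Over all 27025 genes with a stretch the share was 18.3%. The count of matches grows with the number of start sites, and these 33 genes have 51 stretches. ACGTG, the core that hypoxia-inducible factors bind, was present in 10 of those 20 genes and in 6 of the other 13, against 21.8% of all genes. The MEF2 motif was found in 2 of the 20 genes and in 0 of the 13, against 3.7% of all genes. TATAAA was found in 1 of the 20 and 2 of the 13, against 15.7%. MEF2 factors are the transcription factors that class IIa deacetylases hold down. To show what matches look like, 3 stretches are printed, with every match of the 4 motifs in capitals. Of these only that of Pgam2 holds a MEF2 match, and Pfkfb1, the other gene with a MEF2 match, is not printed. A match is a run of letters in this window and was not tested for binding. Pgam2 (chr11:5803747-5804046, minus strand) has a MEF2 match 80 bases and a CAGCTG 125 bases upstream of the start. Pygm (chr19:6384158-6384457, plus strand) has CAGCTG 168 and 8 bases upstream and the reverse complement of ACGTG 61 bases upstream. Ldha (chr7:46845554-46845853, plus strand) has ACGTG or its reverse complement at 3 places, which lie between 145 and 34 bases upstream.
Pgam2: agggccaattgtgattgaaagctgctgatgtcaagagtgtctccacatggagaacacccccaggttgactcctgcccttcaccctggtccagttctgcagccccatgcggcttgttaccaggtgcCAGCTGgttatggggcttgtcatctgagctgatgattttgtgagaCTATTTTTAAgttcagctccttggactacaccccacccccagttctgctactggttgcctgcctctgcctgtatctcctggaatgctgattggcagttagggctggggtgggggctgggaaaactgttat
Pygm: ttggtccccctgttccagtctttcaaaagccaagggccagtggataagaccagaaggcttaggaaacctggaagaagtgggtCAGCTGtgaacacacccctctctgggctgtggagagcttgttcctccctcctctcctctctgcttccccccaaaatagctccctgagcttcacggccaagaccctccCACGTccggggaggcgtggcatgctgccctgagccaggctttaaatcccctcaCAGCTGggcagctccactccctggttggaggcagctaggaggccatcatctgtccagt
Ldha: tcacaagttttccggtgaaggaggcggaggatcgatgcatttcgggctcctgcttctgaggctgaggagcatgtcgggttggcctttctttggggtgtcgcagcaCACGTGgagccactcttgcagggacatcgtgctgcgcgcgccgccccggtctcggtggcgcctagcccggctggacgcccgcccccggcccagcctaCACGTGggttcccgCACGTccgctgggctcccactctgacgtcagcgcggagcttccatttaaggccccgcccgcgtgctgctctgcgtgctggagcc

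Levels of different genes can be compared per transcript length, so the wild type mice are described in FPKM (mean ± SD, n = 8). Tibialis was the tissue with the highest mean FPKM for 20 of the 35 genes, cortex for 6, liver for 5, heart for 3 and striatum for 1. For 29 of the 35 the mice of the highest tissue did not overlap those of any other tissue. Aldoa, the muscle aldolase, was the most abundant, with 10040 ± 864 FPKM in tibialis, and had 1067 ± 124 FPKM in heart and 37.65 ± 6.38 FPKM in liver. Eno3, the muscle enolase, had 3042 ± 230 FPKM in tibialis and Gapdh had 2973 ± 403 FPKM. Pygm, the muscle glycogen phosphorylase whose loss causes McArdle disease, had 1798 ± 99.6 FPKM there, and Pgam2, the muscle phosphoglycerate mutase, had 1442 ± 147 FPKM.

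The other tissues were marked by the partner isoenzymes. In heart, Ldhb, the subunit that favours use of lactate, reached 827.9 ± 65.1 FPKM, and Pygb, the brain-type phosphorylase, reached 182.6 ± 25.9 FPKM. Aldoc, the aldolase of astrocytes and Purkinje cells, had 363.5 ± 20 FPKM in cortex and 321.4 ± 24.3 FPKM in striatum, values that overlapped. Eno2, the enolase of neurons, had 353.7 ± 25.2 FPKM in striatum and 301.9 ± 16.7 FPKM in cortex, which also overlapped. Hk1, the hexokinase of brain, had 81.67 ± 4.51 FPKM in cortex, whereas Hk2, the muscle form, had 60.92 ± 4.24 FPKM in tibialis and 51.04 ± 6.77 FPKM in heart, with overlap between the muscles. Liver stood apart for genes of glucose release and storage: Fbp1 had 468.6 ± 82 FPKM, Pygl 157.9 ± 16.7 FPKM and Gys2 66.22 ± 23.9 FPKM. It also stood apart for Pklr, the liver pyruvate kinase of glycolysis, with 54.25 ± 10 FPKM. With values rescaled to TPM, which sum to the same total in every library, the highest tissue changed for 2 genes, Gpi1 (striatum in place of tibialis) and Pfkfb2 (cortex in place of heart).

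**Figure D1:**
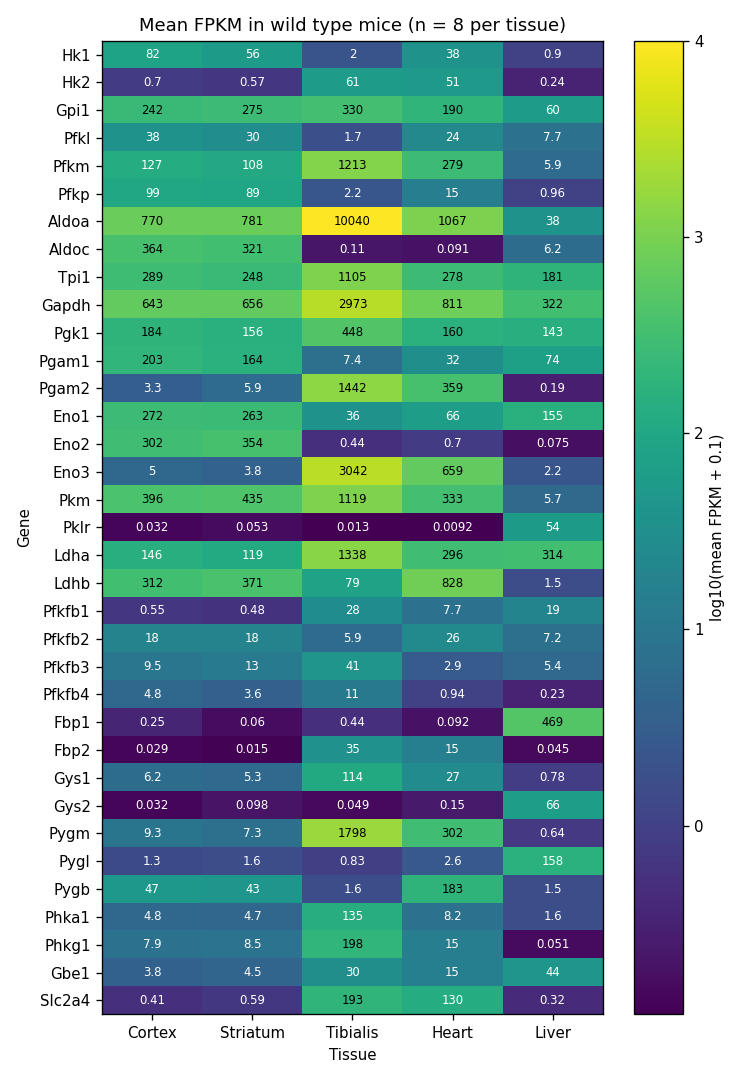
Mean FPKM of the 35 genes in each tissue of wild type mice (n = 8 per tissue). The colour is log10(mean FPKM + 0.1) and the printed number is the mean FPKM; tibialis holds the highest value of 20 genes.

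R6/2 vehicle mice were compared with wild type vehicle mice in each tissue to ask how the transgene changed the pathway. In tibialis, 21 of the 33 genes with enough counts fell and 3 rose, and in all 15760 genes tested there 22.2% fell and 23.6% rose. Their median log2 fold change was −0.62, against 0.03 over all genes. In cortex 12 of 31 fell and 7 rose (25.8% and 28.1% of all genes), and in striatum 11 of 31 fell and 4 rose (19.8% and 22.6%). In heart 9 of 33 fell and 1 rose (7.46% and 6.96%), and in liver 2 of 32 fell and 3 rose (6.32% and 6.5%). The medians were −0.02 in cortex, −0.05 in striatum, −0.09 in heart and 0.04 in liver, against 0.02, 0.04, 0.01 and 0.01 over all genes of the same tissues. Falls were more frequent than among all genes in tibialis and in both brain regions, and in heart, and rises were less frequent in all of these; in liver both shares were near those of all genes.

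Over the 5 tissues, 31 genes passed the test in at least 1, and 11 rose in 1 tissue and fell in another. Only 3 genes passed in 4 or more tissues. The same counts over all genes are not given here, so these have no share to be set against. Of the 11, only Ldhb, which rose in tibialis and fell in cortex, kept calls in both directions under every setting tried. Genes with too few counts to test were Gys2, Fbp1, Fbp2 and Pklr in cortex and striatum, Gys2 and Pklr in tibialis, Pklr and Fbp1 in heart, and Phkg1, Eno2 and Pgam2 in liver. In bulk tissue, fewer cells of a type and less RNA per cell cannot be told apart, and this holds for every change below.

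**Figure D2:**
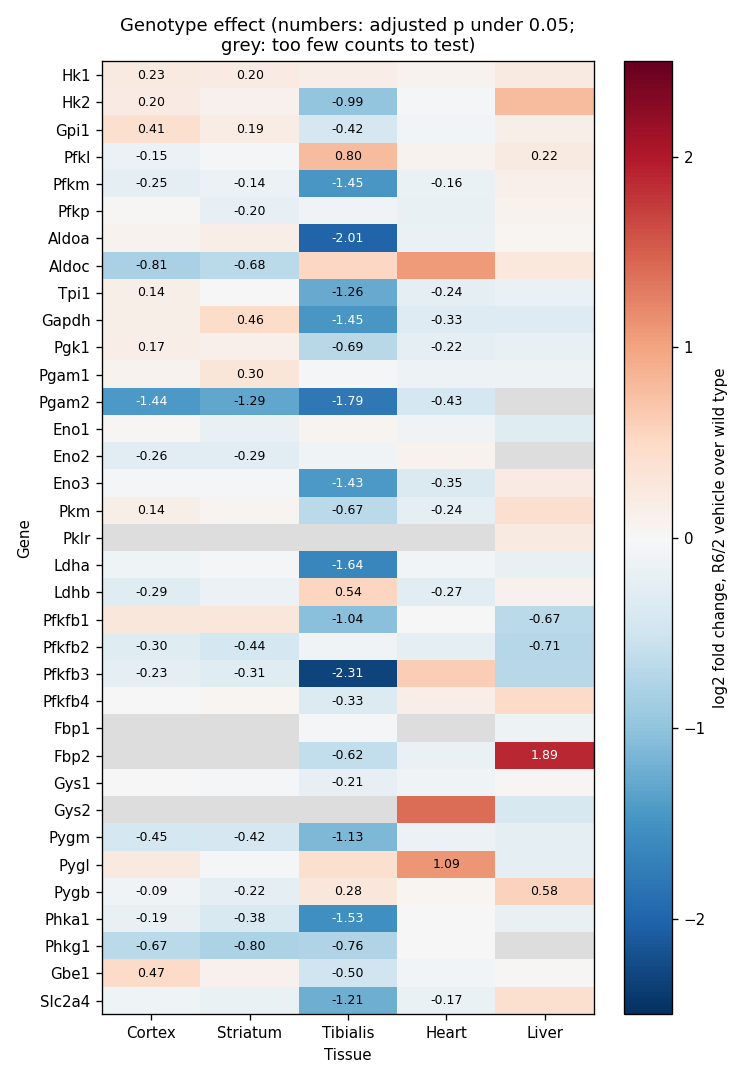
Log2 fold change of R6/2 vehicle over wild type vehicle mice for each gene and tissue (8 mice per arm; blue is lower and red is higher in R6/2). Numbers mark adjusted p under 0.05 and grey marks genes with too few counts; the tibialis column is mostly blue, with Pfkl, Ldhb and Pygb as the 3 numbered red cells.

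Leaving out the libraries of few long transcripts, a choice made after seeing the data, ended 4 of these calls and added 14. The shares of all genes called in that fit are not given here. Those ended were Hk2 (0.17, adjusted p = 0.105) and Tpi1 (0.11, adjusted p = 0.0634) in cortex, Gapdh in striatum and Pygl in heart, both given below. In cortex Ldha (−0.14, adjusted p = 0.0324) and Pygl (0.26, adjusted p = 0.0364) were then past the test. In striatum these were Ldhb (−0.26, adjusted p = 2.79e-06), Eno1 (−0.35, adjusted p = 0.0265), Gbe1 (0.20, adjusted p = 0.00198) and Pgk1 (0.09, adjusted p = 0.0371). In heart they were Pygm (−0.18, adjusted p = 0.00633), Aldoa (−0.13, adjusted p = 0.0170) and Gys1 (−0.15, adjusted p = 0.0264). In liver they were Gapdh (−0.39, adjusted p = 0.0110), Gys2 (−0.49, adjusted p = 0.0328), Pygl (−0.27, adjusted p = 0.0358), Hk2 (0.92, adjusted p = 0.0273) and Pkm (0.45, adjusted p = 0.0329). No call in tibialis changed.

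In tibialis genes from glucose entry to lactate fell, among them the muscle isoenzymes of several steps. Aldoa was at 3745, 4462 and 5068 CPM (lowest, median and highest) in R6/2 vehicle mice, against 15790, 17300 and 21440 CPM in wild type mice. The arms did not overlap, and the log2 fold change was −2.01 ± 0.07 (adjusted p = 9.14e-20), close to a 4-fold lower level, 0.249 of wild type. Pgam2 was at 453.6, 481.4 and 548 CPM in R6/2 vehicle mice, against 1357, 1643 and 2090 CPM in wild type mice (log2 −1.79 ± 0.08, adjusted p = 1.53e-17). Eno3, which acts on the next substrate, was at 1954, 2348 and 2716 CPM in R6/2 vehicle mice, against 5367, 6176 and 7203 CPM in wild type mice (−1.43 ± 0.06, adjusted p = 1.03e-17). For both genes every R6/2 mouse lay below every wild type mouse.

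The upper steps fell as well. Slc2a4, which brings in glucose, was at 246.1, 286.4 and 317.8 CPM in R6/2 vehicle mice, against 583.8, 643.1 and 745.8 CPM in wild type mice (−1.21 ± 0.06, adjusted p = 4.23e-17). Hk2, which phosphorylates it, was at 180.5, 205.3 and 393.3 CPM in R6/2 vehicle mice, against 411.8, 452.3 and 519.4 CPM in wild type mice (−0.99 ± 0.13, adjusted p = 1.26e-07). The R6/2 mouse at 393.3 CPM lay far above the other 7, yet still below all wild type mice. Pfkm, the muscle phosphofructokinase and the committed step, was at 1633, 1738 and 1966 CPM in R6/2 vehicle mice, against 4341, 4763 and 5476 CPM in wild type mice (−1.45 ± 0.07, adjusted p = 4.23e-17). Pfkfb3, whose product activates phosphofructokinase, had the largest fall of the list, −2.31 ± 0.28 (adjusted p = 4.56e-08). It varied widely between wild type mice, and was at 33.46, 46.32 and 76.75 CPM in R6/2 vehicle mice, against 105.3, 183.2 and 491.1 CPM in wild type mice, again without overlap.

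At the end of the pathway, Ldha, the subunit that favours making lactate, was at 841.4, 979.1 and 1069 CPM in R6/2 vehicle mice, against 2614, 2896 and 3473 CPM in wild type mice (−1.64 ± 0.06, adjusted p = 4.21e-19). Its partner Ldhb went the other way, at 161.3, 202.4 and 267.6 CPM in R6/2 vehicle mice, against 117.3, 140.6 and 180.5 CPM in wild type mice (0.54 ± 0.10, adjusted p = 6.84e-05). For Ldhb the arms overlapped, although all 8 R6/2 mice lay above the wild type mean. Pfkl, the liver phosphofructokinase, was at 12.81, 14.29 and 16.15 CPM in R6/2 vehicle mice, against 6.147, 8.665 and 10.37 CPM in wild type mice (0.80 ± 0.08, adjusted p = 1.30e-09). These are low levels for tibialis, and the arms did not overlap. Pygb rose by 0.28 ± 0.11 (adjusted p = 0.0277) and was likewise low there.

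Genes of glycogen breakdown fell as well. Pygm was at 3019, 3194 and 3704 CPM in R6/2 vehicle mice, against 6195, 7356 and 7965 CPM in wild type mice (−1.13 ± 0.06, adjusted p = 2.35e-16). Phka1, the muscle regulatory subunit of the kinase that switches Pygm on, was at 300.6, 390.7 and 451.1 CPM in R6/2 vehicle mice, against 1045, 1143 and 1210 CPM in wild type mice (−1.53 ± 0.10, adjusted p = 6.62e-14). Neither gene's arms overlapped. Phkg1, the catalytic subunit of that kinase in muscle, fell by 0.76 on the log2 scale (adjusted p = 2.60e-12), while the genes of glycogen synthesis moved less, Gys1 by −0.21 ± 0.07 and Gbe1 by −0.50 ± 0.11, and were positive on FPKM (0.454 and 0.167). By limma the FPKM value of Gys1 was past the test (adjusted p = 3.53e-07) and that of Gbe1 was not (adjusted p = 0.114). Whether counting used strand is not given in the sources used here, so reads of overlapping genes may be mixed. Exons overlapped those of Gm49759 for Pkm (15.3% of its exon length, same strand), Gm26513 for Pfkm (10.2%, same strand), Gm26762 for Gpi1 (11.5%, opposite strand), Sumf2 for Phkg1 (9.68%, opposite), Ruvbl2 for Gys1 (6.47%, opposite) and Pitrm1 for Pfkp (5.58%, opposite). Altogether 18 of the 33 genes tested had arms that did not overlap, 17 of them lower and 1 higher in R6/2 vehicle mice, while 19.3% of all genes did so.

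**Figure D3:**
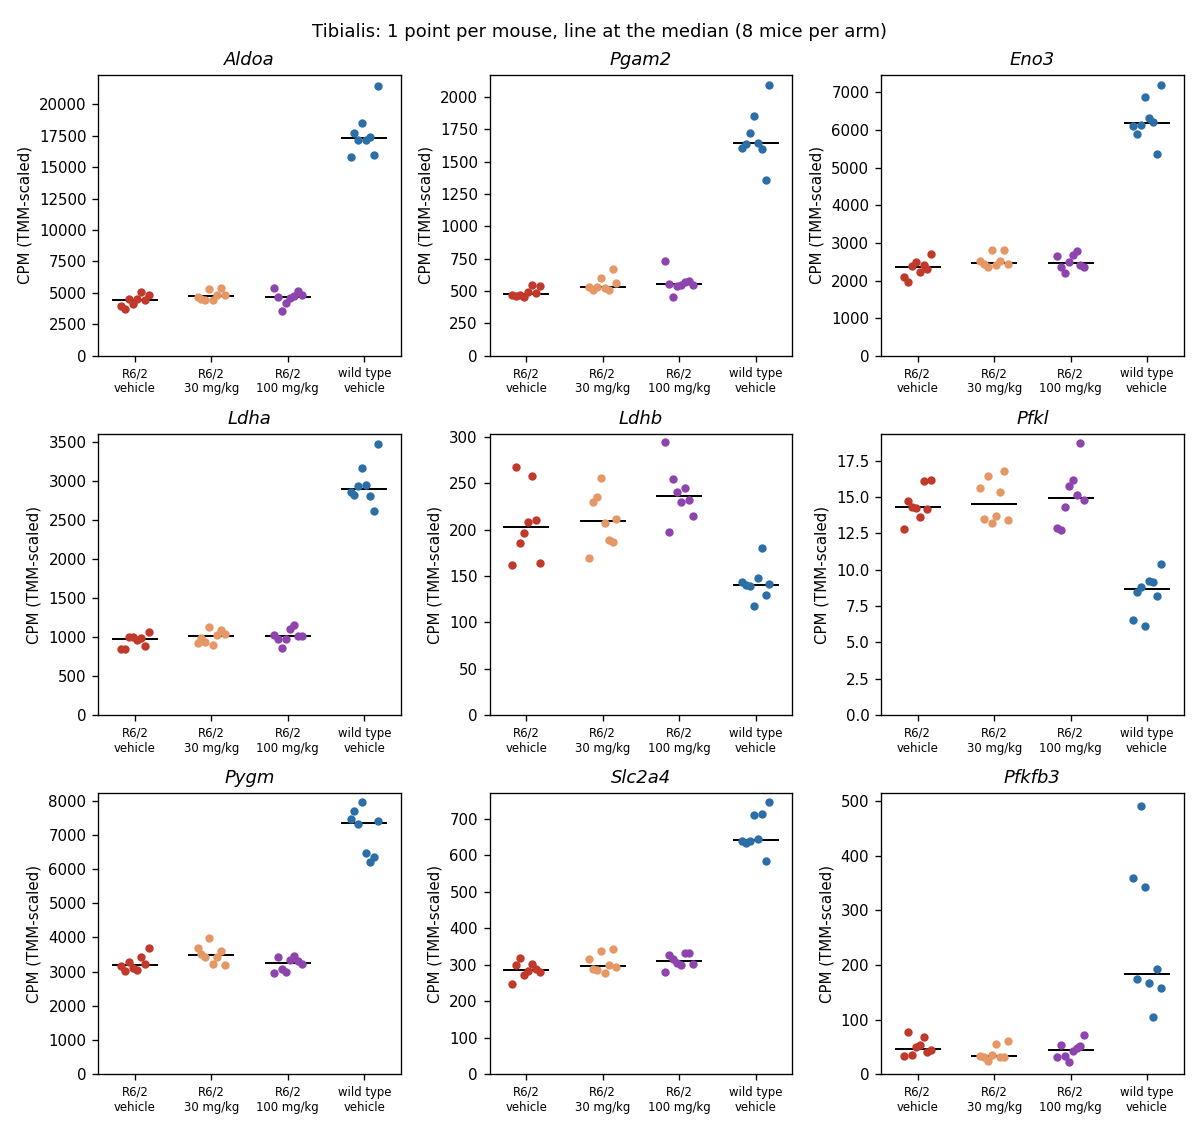
CPM of 9 genes in tibialis, 1 point per mouse and a line at the median of the 8 mice of each arm, on linear axes that start at 0. The R6/2 arms sit together, below the wild type arm for Aldoa, Pgam2, Eno3, Ldha, Pygm, Slc2a4 and Pfkfb3, and above it for most mice in Ldhb and Pfkl.

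The choice of scale matters in tibialis. The TMM factors averaged 1.127 in R6/2 vehicle mice and 0.7201 in wild type mice. Scaled to library totals, the median over all genes was 0.68 in place of 0.03, and on the deposited FPKM it was 0.63, so 83.7% of all genes were called higher and 3.47% lower on FPKM. Against that background 13 of 32 genes fell and 13 rose on FPKM, and 14 of 33 fell and 14 rose with library totals. For library totals the shares of all genes are not given. On FPKM 9 of 30 fell and 12 rose in cortex (19.2% and 42.5% of all genes), 6 of 31 and 7 in striatum (13.6% and 34.5%) and 2 of 28 and 6 in liver (2.59% and 19.8%). Genes that fell in tibialis under every setting tried were Pgam2, Slc2a4, Eno3, Pfkm, Pygm, Pfkfb3, Hk2, Tpi1, Gapdh, Ldha, Aldoa, Phka1 and Pfkfb1, and those that rose under every setting were Pfkl, Ldhb and Pygb. On FPKM and with library totals the sign turned positive for Fbp2, Gbe1, Gpi1, Gys1 and Pfkfb4. Of these, Gys1, Gpi1 and Pfkfb4 were past the test as higher on both scales (adjusted p = 3.53e-07, 0.000131 and 0.00955 by limma on FPKM). Fbp2 and Gbe1 were past it on neither (adjusted p = 0.856 and 0.114 by limma on FPKM). Pgk1 and Pkm were not past the test on either scale, and Phkg1 was not past it on FPKM. Aldoa fell by 1.397 on FPKM and by 1.36 with library totals. The summed share of all 35 genes in the counts, which is a value scaled to library totals, averaged 2.441% ± 0.1104 in R6/2 vehicle muscle, against 4.065% ± 0.2248 in wild type muscle (SD, n = 8), without overlap (2.303 to 2.663% and 3.757 to 4.495%). In the other tissues it lay between 0.364 and 1.08% on average in both arms.

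The changes in tibialis divided by where a gene is normally most abundant. All 20 genes whose highest wild type tissue was tibialis fell, with a median of −1.17, whereas of the other 13 tested 3 rose, 1 fell and the median was 0.07. With library totals 14 of the 20 fell and 3 rose, while 11 of the 13 rose and 0 fell. The median over all genes was 0.68 on that scale, and the share of all genes called there is not given. On FPKM 13 of the 20 fell and 3 rose, while 10 of the 12 others tested rose and 0 fell. Of all genes 83.7% were higher and 3.47% lower on FPKM, so the rises among the 12 were near the general share. The grouping used the same wild type tibialis libraries as the comparison, so it describes the pattern and carries no test. Markers of fast fibres moved alongside: all 9 fell (median −1.79), and their summed level was 33470 to 49740 CPM in R6/2 vehicle mice, against 142900 to 165800 CPM in wild type mice. Of 7 slow-fibre markers 1 rose and 1 fell (median 0.91). Their sums were 144.8 to 689.8 CPM in R6/2 vehicle mice and 125 to 410.9 CPM in wild type mice, and none averaged under 0.1 CPM. The part of fibre type in these changes was not tested.

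Shares within an isoenzyme family do not depend on scaling between libraries and are given as percent of the family's summed FPKM, as descriptions. In tibialis, Ldhb made up 15.66, 19.99 and 27.71% (lowest, median and highest) of Ldha plus Ldhb in R6/2 vehicle mice, against 4.311, 5.68 and 7.252% in wild type mice. The share of Hk1 in the hexokinase pair was 4.654, 7.447 and 8.911% in R6/2 vehicle mice and 2.641, 3.15 and 3.577% in wild type mice. Eno1, the enolase of most non-muscle cells, took 3.061, 3.416 and 4.009% of the enolases in R6/2 vehicle mice, and 0.9111, 1.143 and 1.466% in wild type mice. In all 3 families the R6/2 mice lay wholly above the wild type mice, and the muscle isoenzyme still made up most of the family in both arms. Reads of Eno1 are less certain, because its near copy Eno1b took 7.91 to 9.33% of their joint counts in every tissue.

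Among the phosphofructokinases Pfkl had a share of 0.5679 to 0.7388% in R6/2 vehicle muscle, against 0.101 to 0.1653% in wild type muscle. The PFKFB family was reordered. Pfkfb3 held 17, 22.19 and 33.45% of it in R6/2 vehicle mice, against 29.98, 44.55 and 64% in wild type mice, with some overlap. Pfkfb4 held 19.85, 24.71 and 27.55% in R6/2 vehicle mice, against 8.819, 13.2 and 17.03% in wild type mice, without overlap. Pfkfb4 itself was −0.33 in CPM and 0.327 on FPKM, while Pfkfb3 and Pfkfb1 fell on both scales.

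**Figure D4:**
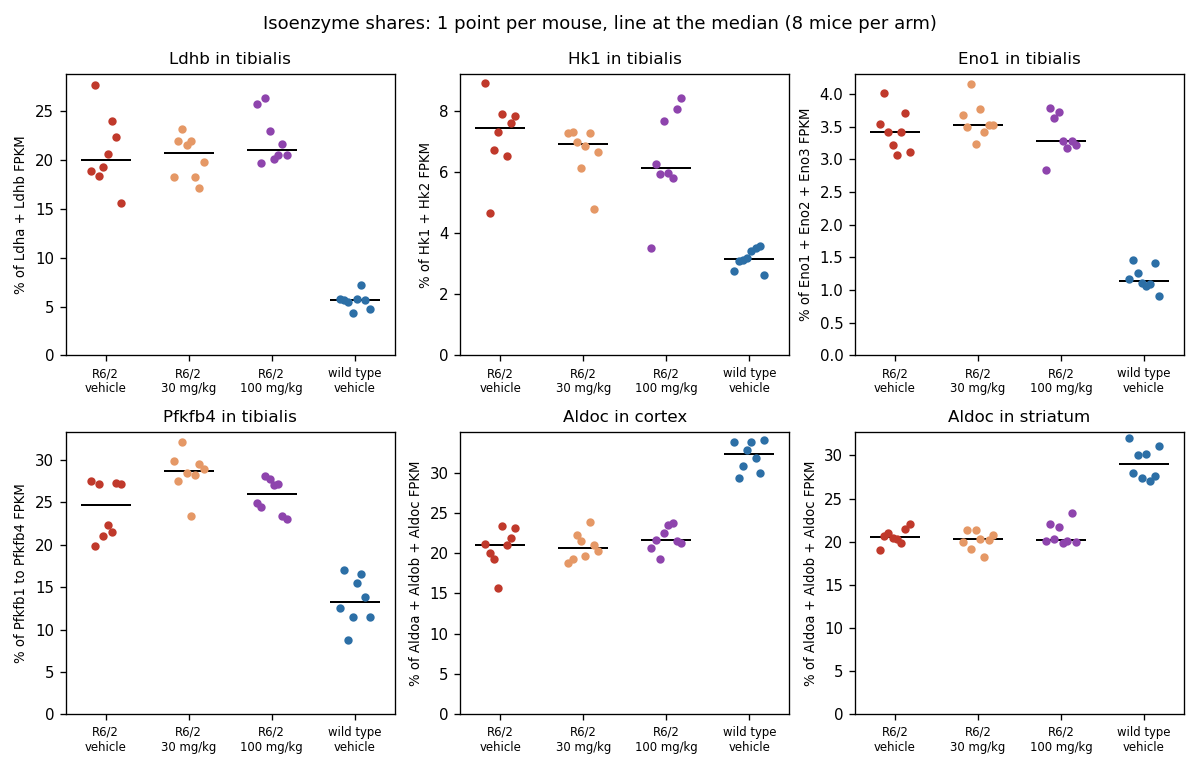
Share of 1 isoenzyme in its family's summed FPKM, in percent on axes that start at 0, with 1 point per mouse and a line at the median (8 mice per arm). Medians of the R6/2 arms sit above wild type for Ldhb, Hk1, Eno1 and Pfkfb4 in tibialis and below it for Aldoc in cortex and striatum. For Hk1 the 100 mg/kg arm overlaps wild type.

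Tibialis and heart of the same mice differed in their response. The genotype effect in tibialis minus that in heart, tested with limma on the difference within each of 16 mice, was lower than 0 for 19 of 32 genes and higher for 2, against 15.1% and 15.5% of all genes tested. Aldoa had the smallest p, with a difference of −1.83 ± 0.09 (adjusted p = 7.56e-09), followed by Ldha at −1.56 ± 0.08 (adjusted p = 1.03e-08) and Pfkm at −1.29 ± 0.07 (adjusted p = 1.26e-08). Pfkfb3 had the largest difference, −2.77 ± 0.36 (adjusted p = 4.35e-05), since it fell in tibialis while its value in heart was 0.61 ± 0.23 (adjusted p = 0.0744). The 2 genes with a higher effect in tibialis were Ldhb (0.79 ± 0.13, adjusted p = 2.62e-04) and Pfkl (0.72 ± 0.11, adjusted p = 1.84e-04). Because the effect of scaling in tibialis enters this difference, FPKM gave 13 lower and 9 higher, and library totals gave 14 lower and 10 higher. The medians over all genes were then 0.47 and 0.50, and shares of all genes are not given for these scales.

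In heart the changes were small and mostly downward. All 6 heart markers fell (median −0.37), with sums of 29370 to 36500 CPM in R6/2 vehicle mice and 37510 to 43710 CPM in wild type mice. Of 5 fibroblast markers 3 rose, with sums of 908.5 to 1566 CPM in R6/2 vehicle mice and 833.1 to 1042 CPM in wild type mice, and of 4 endothelial markers 2 rose, with sums of 589.5 to 695.9 CPM in R6/2 vehicle mice and 524.3 to 607.6 CPM in wild type mice. Of 3 red-cell markers 2 fell, with sums of 1138 to 3009 CPM in R6/2 vehicle mice and 2169 to 4990 CPM in wild type mice. None of these markers averaged under 0.1 CPM, and their part in the changes below was not tested. Eno3 was at 681.2, 801.9 and 890 CPM in R6/2 vehicle mice, against 902.2, 1009 and 1202 CPM in wild type mice (−0.35 ± 0.08, adjusted p = 3.35e-03), without overlap. Tpi1, which interconverts the products of aldolase, fell by 0.24 on the log2 scale (adjusted p = 1.78e-03) and its arms did not overlap either. These were the 2 genes of the list whose arms stood apart in heart, where 1.57% of all genes did. Pgam2 was at 208.3, 236.6 and 271.7 CPM in R6/2 vehicle mice, against 260.6, 305.8 and 476.8 CPM in wild type mice (−0.43 ± 0.11, adjusted p = 7.42e-03), with overlap and with 1 wild type mouse far above the rest.

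Gapdh (−0.33), Ldhb (−0.27), Pkm (−0.24), Pgk1 (−0.22), Slc2a4 (−0.17) and Pfkm (−0.16) also fell in heart. Pgk1 shares reads with its near copy Pgk1-rs7, which took 7.23 to 12.7% of their joint counts. On FPKM, where the median over all genes was 0.12, 3 of 31 genes fell and 4 rose (1.97% and 24.4% of all genes), and no call in heart was the same under every setting. Pygl, the liver phosphorylase, was the 1 gene that rose, at 6.496, 18.11 and 22.89 CPM in R6/2 vehicle mice, against 4.387, 6.738 and 13.98 CPM in wild type mice (1.09 ± 0.37, adjusted p = 0.0440). It was not past the test without the libraries of few long transcripts (0.98, adjusted p = 0.0614). All 4 leukocyte markers rose in the same hearts, with sums of 193.5 to 490 CPM in R6/2 vehicle mice and 153.7 to 235.8 CPM in wild type mice, and their part in the change of Pygl was not tested.

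Both brain regions shared the largest falls. Aldoc was at 342.9, 415.9 and 456.8 CPM in R6/2 vehicle cortex, against 662.7, 720.5 and 771.6 CPM in wild type cortex (−0.81 ± 0.06, adjusted p = 7.55e-13). In striatum it was at 338.2, 385.5 and 507 CPM in R6/2 vehicle mice, against 586.7, 623 and 698.1 CPM in wild type mice (−0.68 ± 0.07, adjusted p = 2.34e-09). Neither region's arms overlapped. As a share of the aldolases, Aldoc was 15.67, 21.05 and 23.42% in R6/2 vehicle cortex and 29.28, 32.33 and 34.06% in wild type cortex. In striatum it was 19.06, 20.56 and 22.02% in R6/2 vehicle mice and 27.02, 29 and 31.98% in wild type mice. Aldoa, by contrast, was 0.09 ± 0.06 in cortex and 0.17 ± 0.14 in striatum, not past the test. The striatum value includes the R6/2 vehicle library with the fewest long transcripts, which had 2885 CPM of Aldoa. The other R6/2 vehicle mice had 1097 to 1287 CPM there, and the wild type mice 1098 to 1307 CPM.

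Of 5 astrocyte markers, 4 fell in cortex and 4 in striatum. Their sum was 775.4 to 882.8 CPM in R6/2 vehicle cortex and 1039 to 1285 CPM in wild type cortex, and 646.2 to 783.7 CPM in R6/2 vehicle striatum and 882 to 1076 CPM in wild type striatum. None of the 5 averaged under 0.1 CPM, and their part in the change of Aldoc was not tested. Eno2, typical of neurons, fell by 0.26 in cortex (adjusted p = 1.04e-05) and by 0.29 in striatum (adjusted p = 1.39e-03). Of 4 neuron markers, 3 fell and 1 rose in each region.

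Pgam2 had the steepest fall in brain, from a low level. It was at 0.7901, 1.057 and 1.318 CPM in R6/2 vehicle cortex, against 2.288, 2.688 and 4.071 CPM in wild type cortex (−1.44 ± 0.16, adjusted p = 4.31e-09), and fell by 1.29 in striatum (adjusted p = 3.30e-08). Together with the tibialis and heart results, it fell in all 4 tissues in which it had enough counts. Phkg1 fell by 0.67 in cortex (adjusted p = 2.06e-11) and by 0.80 in striatum (adjusted p = 5.38e-08). In striatum it was at 5.911, 10.83 and 12.56 CPM in R6/2 vehicle mice, against 16.44, 18.32 and 20.39 CPM in wild type mice. Its overlap with Sumf2 holds here too. Pygm (−0.45 and −0.42), Pfkfb2 (−0.30 and −0.44), Pfkfb3 (−0.23 and −0.31) and Phka1 (−0.19 and −0.38) fell in cortex and striatum. In striatum the R6/2 vehicle library with the fewest long transcripts had 24.05 CPM of Pfkfb2, 31.58 CPM of Pfkfb3 and 17.09 CPM of Phka1. The other R6/2 vehicle mice had 49.12 to 55.05, 47.64 to 55.09 and 22.11 to 27.36 CPM. That library was above the others for Pygm, at 19.88 CPM against 14.23 to 16.81 CPM. On FPKM the adjusted p was 0.0789 for Pfkfb3 and 0.0844 for Phka1 in cortex, and 0.0640 for Pfkfb2 and 0.197 for Pfkfb3 in striatum, so these 4 calls were lost. Other brain calls not held under every setting were the falls of Pfkl and Pygb in cortex and of Pfkm, Pfkp and Pygb in striatum, and the rises of Hk2 and Tpi1 in cortex and of Gapdh and Pgam1 in striatum.

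Some general steps rose in the same tissue. Gpi1 was at 690.2, 729.4 and 806.3 CPM in R6/2 vehicle cortex, against 514.3, 556.6 and 580.9 CPM in wild type cortex (0.41 ± 0.03, adjusted p = 2.65e-12). Gbe1, which adds branches to glycogen, was at 15.36, 16.08 and 17.95 CPM in R6/2 vehicle cortex, against 10.63, 11.86 and 12.63 CPM in wild type cortex (0.47 ± 0.04, adjusted p = 6.40e-11). Hk1 was at 363, 379.9 and 431.3 CPM in R6/2 vehicle cortex, against 302.8, 324.7 and 355.4 CPM in wild type cortex (0.23 ± 0.03, adjusted p = 1.29e-06). In each case all R6/2 mice lay above all wild type mice. Hk1 and Gpi1 rose in striatum too, by 0.20 ± 0.06 and 0.19 ± 0.04. Pgk1 (0.17, adjusted p = 0.00292) and Pkm (0.14, adjusted p = 0.00144) also rose in cortex. Pfkm (−0.25, adjusted p = 1.30e-07) and Ldhb (−0.29, adjusted p = 3.78e-07) fell there. The cortex calls of Pgk1, Pkm, Pfkm and Ldhb held under every setting tried. In cortex 10 of the 31 genes had arms that stood apart, 7 lower and 3 higher, against 21% of all genes, and in striatum 5 did, 4 lower and 1 higher, against 15.2%.

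Gapdh in striatum, called higher by 0.46 ± 0.19 (adjusted p = 0.0468), rested on 1 library. It was at 592.2, 685.1 and 2333 CPM in R6/2 vehicle mice, against 475.1, 641.3 and 677.8 CPM in wild type mice, and the mouse at 2333 CPM gave the library with the fewest long transcripts. Without the libraries of that kind the change was 0.11 (adjusted p = 0.104). The genotype effect in striatum was tested against that in cortex within the same mice: 2 of 31 genes differed, Gpi1 by −0.22 ± 0.04 (adjusted p = 1.96e-03) and Pfkp by −0.23 ± 0.05 (adjusted p = 0.0121). Both were lower in striatum, as 5.18% of all genes were, and 0 genes had a higher effect there (3.99% of all genes). On FPKM or library totals 0 genes differed in this test. At an unadjusted p under 0.05 limma gave 5 of the 31 genes and 21.5% of all genes.

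In liver, 2 of the PFKFB genes fell. Pfkfb1 was at 15.12, 21.54 and 34.7 CPM in R6/2 vehicle mice, against 27.99, 34.9 and 41.36 CPM in wild type mice (−0.67 ± 0.13, adjusted p = 6.89e-04). Its wild type mean was 19.2 FPKM in liver and 27.62 FPKM in tibialis, its highest tissue. Pfkfb2 was at 7.762, 13.59 and 17.48 CPM in R6/2 vehicle mice, against 15.33, 22.82 and 27.11 CPM in wild type mice (−0.71 ± 0.13, adjusted p = 5.03e-04). Both pairs of arms overlapped, and 0 genes of the list stood apart in liver. The exons of Pfkfb2 share 17.4% of their length with Gm29427 on the same strand. Pygb was at 5.539, 9.198 and 10.79 CPM in R6/2 vehicle mice, against 4.541, 5.491 and 8.284 CPM in wild type mice (0.58 ± 0.17, adjusted p = 0.0188), while 3 of 4 leukocyte markers rose, with sums of 166.6 to 263 CPM in R6/2 vehicle mice and 87.61 to 184 CPM in wild type mice. Their part in the change of Pygb was not tested.

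Pfkl rose by 0.22 ± 0.07 (adjusted p = 0.0256) in liver, and was not past the test with no filter (adjusted p = 0.0619) or with the 2 arms alone (adjusted p = 0.0502). Pygb was not past it on FPKM with no filter (adjusted p = 0.0569). Fbp2, the muscle bisphosphatase, was called higher by 1.89 ± 0.47 (adjusted p = 7.47e-03), at 0.06022, 0.2189 and 0.4536 CPM in R6/2 vehicle mice, against 0.03169, 0.04784 and 0.1875 CPM in wild type mice, levels close to no reads. The genes that mark liver did not pass with all libraries: Gys2 was −0.41 ± 0.15 (adjusted p = 0.0774), Pygl −0.25 ± 0.09 (adjusted p = 0.0531), Fbp1 −0.12 ± 0.10 (adjusted p = 0.456) and Pklr 0.22 ± 0.21 (adjusted p = 0.521). Pklr shares 22% of its exon length with Hcn3 on the opposite strand.

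The 2 doses of CHDI-00390576 were each compared with R6/2 vehicle, so that all 3 R6/2 arms share the same vehicle mice in these tests. At 30 mg/kg, 0 genes of the list passed the edgeR test in any tissue, as did 0% of all genes, and DESeq2 and limma on FPKM also gave 0. At an unadjusted p under 0.05 there were 1 in cortex, 2 in striatum, 5 in tibialis, 0 in heart and 2 in liver, against 4.67%, 4.84%, 4%, 3.87% and 7.35% of all genes in the same tissues. At 100 mg/kg, 0 passed by edgeR in any tissue, while 0.00571% of all genes passed in cortex, 0% in striatum and tibialis, 0.0126% in heart and 2.06% in liver. At an unadjusted p under 0.05 there were 3 in cortex, 1 in striatum, 6 in tibialis, 1 in heart and 11 in liver, against 4.19%, 3.9%, 13.7%, 8.01% and 16.2% of all genes.

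Liver at 100 mg/kg came closest. Gpi1 was at 123.2, 147.1 and 158.6 CPM with vehicle, 140.3, 160.3 and 173.8 CPM at 30 mg/kg and 144.5, 174.3 and 203.5 CPM at 100 mg/kg. The difference at 100 mg/kg was 0.24 ± 0.07 (adjusted p = 0.0509, and 0.0143 to 0.137 over the settings tried). Gys2, the liver glycogen synthase, was at 84.78, 136.1 and 172.2 CPM with vehicle, 73.34, 119.9 and 141.5 CPM at 30 mg/kg and 70.79, 87.87 and 120.9 CPM at 100 mg/kg. Its difference at 100 mg/kg was −0.55 ± 0.15 (adjusted p = 0.0519, range 0.0204 to 0.174), in the same direction as its value in R6/2 vehicle against wild type mice.

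Pgam1, the general mutase, was at 114.5, 133.5 and 167.2 CPM with vehicle, 134.7, 146.9 and 159.6 CPM at 30 mg/kg and 135.4, 157.2 and 213.7 CPM at 100 mg/kg (0.28 ± 0.08, adjusted p = 0.0560, range 0.00162 to 0.175). Without the libraries of few long transcripts it rose by 0.27 (adjusted p = 0.0303). Pfkfb1 was at 15.12, 21.54 and 34.7 CPM with vehicle, 21.02, 25.76 and 29.24 CPM at 30 mg/kg and 23.56, 29.05 and 39.77 CPM at 100 mg/kg (0.41 ± 0.13, adjusted p = 0.0788, range 0.0388 to 0.200). For all 4 genes the dosed and vehicle mice overlapped. DESeq2 called these 4 genes at 100 mg/kg, and limma on FPKM called Pgam1, Gpi1, Pfkfb1 and Tpi1. The shares of all genes called by these 2 methods are not given, so the calls have no share to be set against.

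**Figure D5:**
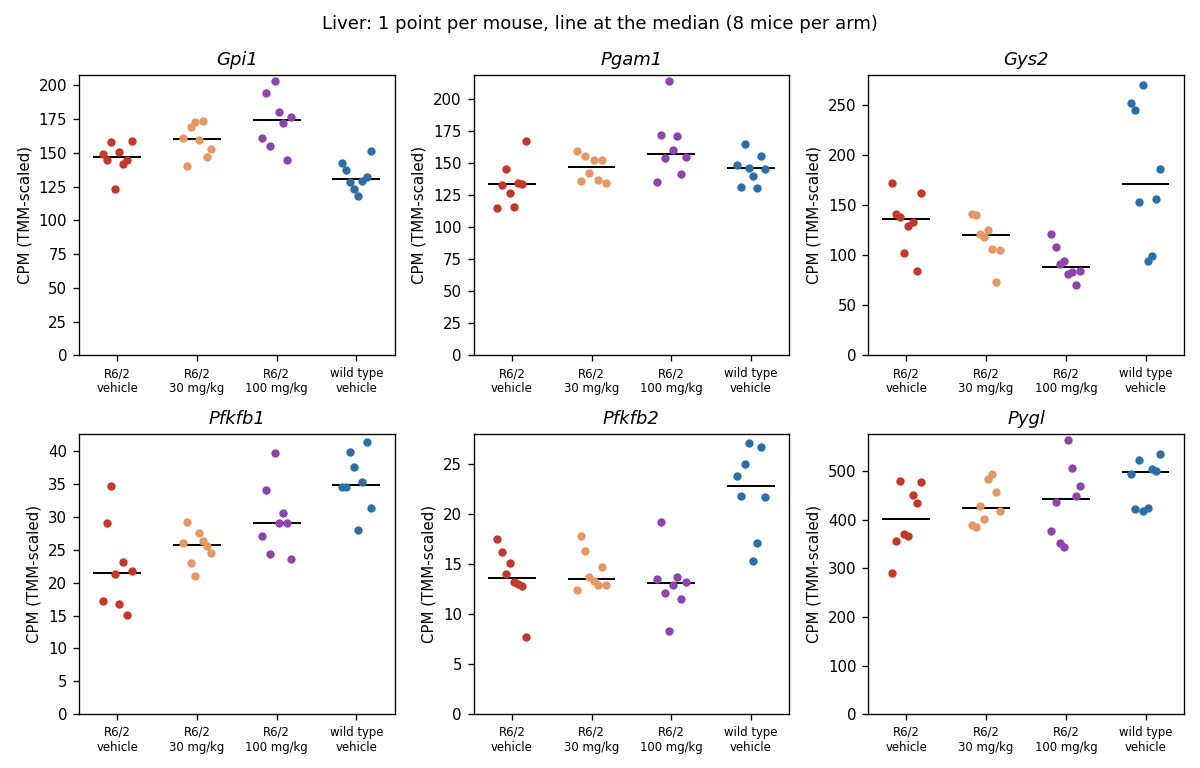
CPM of 6 genes in liver, 1 point per mouse and a line at the median of the 8 mice of each arm, on linear axes that start at 0. Medians of Gpi1, Pgam1 and Pfkfb1 are highest among R6/2 arms at 100 mg/kg and that of Gys2 is lowest there, with overlap between arms in every panel.

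In tibialis, where the genotype effect was largest, the dosed mice stayed near the vehicle level. Aldoa was at 3745, 4462 and 5068 CPM with vehicle, 4465, 4727 and 5375 CPM at 30 mg/kg and 3558, 4700 and 5408 CPM at 100 mg/kg. Pgam2 was at 453.6, 481.4 and 548 CPM with vehicle, 506.3, 532.5 and 670.5 CPM at 30 mg/kg and 452.7, 554.3 and 731.1 CPM at 100 mg/kg. The differences of Pgam2 were 0.18 ± 0.08 at 30 mg/kg (adjusted p = 0.979) and 0.21 ± 0.08 at 100 mg/kg (adjusted p = 0.322), within 95% intervals of 0.02 to 0.33 and 0.06 to 0.36. All dosed mice lay below the lowest wild type mouse, at 1357 CPM. The list's share of counts was 2.441% ± 0.1104 with vehicle, 2.595% ± 0.146 at 30 mg/kg and 2.503% ± 0.1302 at 100 mg/kg, and the Ldhb share of lactate dehydrogenase was 15.66 to 27.71% with vehicle, 17.19 to 23.19% at 30 mg/kg and 19.75 to 26.37% at 100 mg/kg.

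Males were compared with females over all 4 arms. In liver, males had more Gys2 (0.41 ± 0.11, adjusted p = 0.0161) and less Pygl (−0.22 ± 0.06, adjusted p = 0.0181) and Pygb (−0.42 ± 0.12, adjusted p = 0.0214), 3 of 32 genes, while 9.44% of all genes differed by sex there. In heart Pfkl was lower in males (−0.13 ± 0.04, adjusted p = 0.0413), where 2.66% of all genes differed. Without the libraries of few long transcripts Hk2 (−0.61, adjusted p = 0.0474) and Pfkfb2 (0.24, adjusted p = 0.0292) in liver and Ldha (−0.12, adjusted p = 0.0215) in heart passed too. In cortex, striatum and tibialis 0 genes of the list passed by edgeR, against 1.21%, 0.93% and 0.577% of all genes.

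Around the pathway, 65 further genes of glucose and glycogen metabolism and 23 other genes, mostly regulators, were listed. Of the 59 pathway genes tested in tibialis, 26 fell and 10 rose, against 22.2% and 23.6% of all genes. The 3 with the smallest p that fell were Pgm1, a phosphoglucomutase (−1.66 ± 0.06), Pdk2, a kinase that switches off pyruvate dehydrogenase (−0.73 ± 0.04), and Slc16a3, the lactate exporter MCT4 (−2.27 ± 0.14). On FPKM the values of these 3 were also lower, by 0.998, 0.0808 and 1.65, so the change of Pdk2 was small there. Whether they pass the test on FPKM is not given here. The 3 that rose were Pdp2, a phosphatase that switches pyruvate dehydrogenase on (1.69 ± 0.15), Pgd of the pentose phosphate pathway (0.45 ± 0.06) and Ppp1r3d, a glycogen-targeting subunit of protein phosphatase 1 (0.96 ± 0.13). On FPKM 10 of 53 fell and 31 rose (3.47% and 83.7% of all genes).

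Among the regulators in tibialis, Tbc1d1, a brake on GLUT4 traffic, fell by 1.05 (adjusted p = 2.45e-09) and was lower by 0.40 on FPKM, while its relative Tbc1d4 rose by 1.42 ± 0.14 (adjusted p = 1.43e-09). The AMP kinase subunit Prkaa1 rose by 0.79 ± 0.06 (adjusted p = 1.52e-11) and Hif1a by 0.67 ± 0.06 (adjusted p = 1.12e-10). Mef2d was −0.47 ± 0.06 on the TMM scale but 0.22 on FPKM. Mef2a and Mef2c were not past the test (0.07 ± 0.07 and −0.11 ± 0.07).

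In brain the pathway genes with the smallest p repeated each other. Pdp1, the other pyruvate dehydrogenase phosphatase, fell by 1.36 in cortex and 1.24 in striatum, and Gpd1, glycerol-3-phosphate dehydrogenase, by 1.14 and 1.11. Hkdc1 in cortex (−1.35 ± 0.08) and Ppp1r3c in striatum (−0.87 ± 0.06) completed the 3 that fell. Ppp1r3f rose in both, by 0.78 ± 0.07 in cortex and 1 ± 0.13 in striatum. In all 18 of 60 fell and 16 rose in cortex, where 25.8% and 28.1% of all genes did, and 12 of 61 fell and 11 rose in striatum, where 19.8% and 22.6% did, so these shares were near those of all genes.

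In heart 9 of 60 fell, among them Pdhb of pyruvate dehydrogenase (−0.34 ± 0.05) and the glucose-6-phosphate carrier Slc37a4 (−0.28 ± 0.06), and 4 rose, against 7.46% and 6.96% of all genes. In liver 6 of 62 fell and 5 rose, against 6.32% and 6.5% of all genes. Pck1, the cytosolic enzyme that commits carbon to new glucose, fell by 0.76 (adjusted p = 0.0160), while Pck2, its mitochondrial form, rose by 0.52 ± 0.13 (adjusted p = 6.09e-03). Gpd1 fell by 0.56 in R6/2 vehicle liver (adjusted p = 5.82e-03) and rose by 0.56 at 100 mg/kg against vehicle (adjusted p = 0.0245), with the vehicle mice shared by both comparisons. Pdha1 (0.25 ± 0.06, adjusted p = 0.0168) and Mlxipl, the glucose-responsive factor ChREBP (0.35 ± 0.09, adjusted p = 0.0381), also rose at 100 mg/kg.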

How the data were processed

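The authors deposited 1 table of expected counts and 1 table of FPKM values over all tissues, with 1 column per library. CASAVA 1.8.2 is the tool that the submitters' processing notes name; for the aligner, quantifier, genome build and use of strand, nothing is given in the sources used here. Per the labels' protocols, RNA came from frozen tissue and standard Illumina libraries were made. Of the deposited expected counts above 0, 68.15% were whole (within 1e-6), and all were rounded before testing. FPKM as deposited by the authors served for levels between genes and for shares.

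Each tissue was fitted on its 32 libraries with edgeR 4.0.16 (R 4.3.3): TMM scaling, filterByExpr, arm and sex in a quasi-likelihood model, Benjamini-Hochberg adjustment over all genes tested and a threshold of 0.05. Effects in 2 tissues were compared with limma 3.58.1 on log2 CPM (prior count 2) differences within each mouse. Alternatives were DESeq2 1.42.0, other scaling and filters, limma on log2(FPKM + 0.1) for genes with a mean of at least 0.5 FPKM, and fits without libraries with a length slope z under −3.5, a choice made after seeing the data. The fits were tested on simulated data. Library totals had medians of 33.3 M (cortex), 32.44 M (striatum), 35.86 M (tibialis), 36.03 M (heart) and 33.93 M (liver).

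Any of the 35 genes could be named, as could the listed regulators; of the other pathway genes, up to 3 per tissue and direction with the smallest p among those past the test. The 35 genes, the lists and these rules were chosen with earlier results of these data known. Samples are separate mice, so p-values cover the spread between animals. Near copies and the larger exon overlaps with other genes are named in the report.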

Additional observations from a re-analysis of the deposited data

Results flagged for a closer look

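In 91 groups of 8 mice, the highest or lowest value was compared with the rest by Dixon's criterion (0.526 for 8), which chance passes in about 1 of 20 groups, and 12 values stood apart. Mouse numbers run within each tissue, arm and sex, so the same number in 2 tissues need not be the same mouse. R6/2 vehicle male 2 had 4 of them in striatum, from the library with the fewest long transcripts: Gapdh at 2333 CPM (the other 7 mice 592.2 to 704.6), Aldoc at 507 CPM (338.2 to 410.2), Pgam2 at 3.846 CPM (1.407 to 2.448) and Phkg1 at 5.911 CPM (10.25 to 12.56). Aldoa in striatum was not among the groups compared, and the same library had 2885 CPM of it, against 1097 to 1287 CPM in the other R6/2 vehicle mice. The part of library quality in these values was not tested.

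The other values belonged to 8 groups. In R6/2 vehicle mice they were Hk2 in tibialis of male 2 at 393.3 CPM (the others 180.5 to 246), Gpi1 in cortex of male 4 at 806.3 CPM (690.2 to 739.2) and Gbe1 in cortex of male 2 at 17.95 CPM (15.36 to 16.53). At 100 mg/kg they were Pgam1 in liver of male 4 at 213.7 CPM (135.4 to 171.4) and Pgam2 in tibialis of male 1 at 731.1 CPM (452.7 to 581.3). In wild type mice they were Gapdh in striatum of female 4 at 475.1 CPM (625.8 to 677.8), Pgam2 in heart of male 4 at 476.8 CPM (260.6 to 311.4) and Fbp2 in liver of male 1 at 0.1875 CPM (0.03169 to 0.06397). Cortex of R6/2 vehicle mice, heart of wild type mice, and liver and tibialis at 100 mg/kg each held 1 library of few long transcripts. The part of library quality was not tested for these values either.

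The genotype effect (R6/2 vehicle over wild type) differed between tissues of the same mice for the genes below, by limma on differences within 16 mice with adjustment over all genes. Striatum minus cortex gave −0.2155 for Gpi1 (adjusted p = 0.00196) and −0.2308 for Pfkp (adjusted p = 0.0121). Tibialis minus heart was positive for Ldhb (0.7922, adjusted p = 0.000262) and Pfkl (0.7163, adjusted p = 0.000184). It was negative for Aldoa (−1.834, adjusted p = 7.56e-09), Ldha (−1.559, adjusted p = 1.03e-08), Pfkm (−1.289, adjusted p = 1.26e-08), Slc2a4 (−1.046, adjusted p = 2.83e-07), Phka1 (−1.557, adjusted p = 7.84e-07), Tpi1 (−1.019, adjusted p = 7.84e-07) and Pygm (−0.9932, adjusted p = 7.99e-07). Also negative were Pgam2 (−1.357, adjusted p = 1.59e-06), Eno3 (−1.081, adjusted p = 5.04e-06), Gapdh (−1.137, adjusted p = 1.37e-05), Phkg1 (−0.7693, adjusted p = 3.58e-05), Pfkfb3 (−2.772, adjusted p = 4.35e-05), Pfkfb1 (−1.016, adjusted p = 5.35e-05) and Hk2 (−0.9925, adjusted p = 0.000224). The smallest differences were those of Pgk1 (−0.479, adjusted p = 0.000291), Pkm (−0.4274, adjusted p = 0.000405), Gpi1 (−0.3586, adjusted p = 0.00137), Pfkfb4 (−0.4943, adjusted p = 0.0145) and Gbe1 (−0.4234, adjusted p = 0.0494).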

How the results depend on the processing

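Under all settings tried, the direction and side of the threshold held for 16 of the 24 genes past the test for genotype in tibialis, 13 of 19 in cortex, 8 of 15 in striatum, 3 of 5 in liver and 0 of 10 in heart. The same was so for 15 of 21 differences between tibialis and heart and 0 of 2 between striatum and cortex. Scaling had the largest reach. Among the alternatives, a share of all genes is given above only for genotype on FPKM at a pseudocount of 0.1. Counts under the other alternatives in this section have no share to be set against. With library totals, the genes higher in R6/2 vehicle mice numbered 12 in cortex, 7 in striatum, 14 in tibialis, 5 in heart and 8 in liver. The medians over all genes were then 0.09, 0.15, 0.68, 0.14 and 0.13 in the same order. On FPKM, with a pseudocount of 0.1 or 1, they were 12, 7, 13, 4 and 6, and on FPKM with no filter 14 in tibialis, 2 in heart and 5 in liver. Genes lower in R6/2 vehicle mice numbered 6 in striatum and 3 in heart with library totals and on FPKM at either pseudocount, and 13 in tibialis on FPKM at either pseudocount. On FPKM with no filter these were 6, 0 and 13.

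In tibialis the sign turned positive for 5 genes, given as log2 fold change with library totals, on FPKM (with or without the filter) and with a pseudocount of 1: Fbp2 0.02877, 0.02796 and 0.02734, Gbe1 0.1464, 0.167 and 0.1617, Gpi1 0.2281, 0.2123 and 0.2118, Gys1 0.4444, 0.4537 and 0.4506, Pfkfb4 0.3168, 0.3265 and 0.303. Gpi1, Gys1 and Pfkfb4 were past the test as higher under each of these settings, and Fbp2 and Gbe1 under none. Tibialis minus heart turned positive on FPKM and with library totals for Gbe1 (0.1196 and 0.09782), Gpi1 (0.1463 and 0.1628), Pkm (0.09421 and 0.09406), Pfkfb4 (0.04989 and 0.0284) and Pgk1 (0.04281 and 0.04244). The number of genes with a higher effect in tibialis was then 9 and 10. Both scalings move the median of all genes in tibialis by over 0.6 on the log2 scale, while in the other tissues the medians over all genes on FPKM were 0.10 (cortex), 0.13 (striatum), 0.12 (heart) and 0.11 (liver).

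Replicate numbers run within each sex and do not pair the mice (correlations of deviations ranged from −0.7885 to 0.8265). With the replicate block, 2 genes were higher in striatum and 3 in heart. With no filter these counts were 2 and 0, and RLE scaling gave 2 in striatum. With the 2 arms alone the genes higher were 2 in striatum, 5 in tibialis and 1 in liver. DESeq2 called 4 lower in liver. Without the libraries of few long transcripts, a choice made after seeing the data, heart had 0 higher and liver 5 higher and 5 lower.

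For liver at 100 mg/kg, RLE scaling gave 1 call, library totals 2, the 2 arms alone 1, DESeq2 4, FPKM 4 at either pseudocount, FPKM with no filter 1 and leaving out the libraries of few long transcripts 1. By sex, heart had 2 calls with no filter, 3 by DESeq2, 0 on FPKM at either pseudocount or with no filter, and 2 without those libraries; liver had 1 on FPKM with no filter and 5 without those libraries. Striatum minus cortex had 0 lower on FPKM and with library totals and 1 with mice not matched. As shares of expected counts, R6/2 vehicle minus wild type was 0.6438 points for Pfkl in tibialis, −10.79 for Aldoc in striatum, and −0.4786 and −1.087 for Pgam2 in cortex and striatum. With TPM, 2 genes were highest in striatum. Where no value above shows a cause, the cause was not tested. Genes near 0 reads, such as Fbp2 in liver, are limited by depth.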
